A study of Mus musculus with 18 samples.

Results

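The genes described here are 10 subunits and regulators of NF-kB, chosen by name (Nfkb1, Rela, Rel, Nfkb2, Relb, Nfkbia, Nfkbie, Bcl3, Map3k14 and Traf3) from a table of 34745 mouse genes, 14241 of which had enough counts to be tested. Each symbol had 1 row, and all 10 were tested. The table came from RNA sequencing of bone marrow-derived macrophages of mice labelled Zmat1 wild type (WT) or their littermates labelled Zmat1 knockout (KO). The knockout is global and was made on a C57BL/6 background. The cells were kept in M-CSF for 3 days and collected without RANKL (day 0) or after 1 or 3 days of RANKL, the cytokine that turns macrophages into osteoclasts, and M-CSF was common to all groups. There were 6 groups of 3 libraries, 18 libraries in all. Nothing in the labels says that libraries of a group came from separate mice, so that p-values measure the spread between these libraries, which may be technical.

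NF-kB is a family of dimeric transcription factors. In the canonical arm, dimers of RELA or REL with p50, made from the NFKB1 precursor, are held by IkB proteins such as IkBalpha and IkBepsilon until the IKK complex marks the inhibitor for destruction. In the alternative arm, the kinase NIK, encoded by Map3k14, causes the NFKB2 precursor p100 to be trimmed to p52, which pairs with RELB, while TRAF3 keeps NIK low until a receptor is engaged. RANK, the receptor for RANKL, uses both arms, and mice that lack both Nfkb1 and Nfkb2 form no osteoclasts.

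The depth of the libraries was 13789775 to 17559958 counts. Zmat1 had 32 to 91 counts in the 9 libraries labelled WT and 49 to 99 in the 9 labelled KO, so that its counts do not follow the labels. Which part of the gene was deleted is not given in the sources used here, and the groups are named by their labels throughout. The title of 5 libraries is written with a double hyphen (WT day 0 number 1, a WT day 1 library numbered 1, KO day 0 number 2, and KO day 1 numbers 1 and 2), and no day 3 library has such a title. There are 2 WT day 1 libraries numbered 1 and none numbered 3. With the groups held constant, 23.2% of tested genes differed with the title style, and among the genes described here Rela (log2 difference 0.36, adjusted p = 0.00988 in edgeR) and Bcl3 (0.69, adjusted p = 0.0468) were higher in double-hyphen libraries. Results are therefore also given without these 5 libraries.

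The 7 macrophage markers summed to 2722 to 11680 CPM (counts scaled to library size by TMM) in the libraries, and 6 of them fell by day 3 in both labels. The 9 osteoclast markers summed to 114 to 887 CPM on day 0 and 7992 to 22610 on day 3, and 8 rose in both labels. The 8 stromal or osteoblast markers summed to 72.6 to 4050 CPM on day 0 and 9648 to 24980 on day 3, and of 7 tested 5 rose in the WT label and 7 in the KO label. Bglap, a defining osteoblast marker, stayed under 1 CPM in every library. The 8 neutrophil markers all fell in both labels, from 662 to 11710 CPM in sum on day 0 to 35.8 to 1147 on day 3. B cell markers summed to at most 53.4 CPM (4 of 6 fell in the WT label, 2 in the KO label), T or NK cell markers to at most 8.66 CPM, and dendritic cell markers to 2.48 to 194 CPM. The part of these cell types in the changes below was not tested. In RNA from whole cultures, fewer cells of a type and less RNA per cell cannot be told apart.

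The stretches before the start sites of 4 of the genes are shown because NF-kB is known to act on several of its own genes. RefSeq (GRCm38.p6, the build of the table's coordinates) gave promoters for 8 of the 10 genes, in 10 entries, of which 3 are for Nfkb2; Nfkb1 and Relb had no entry. Each run below ends at or just before the annotated gene and reads 5′ to 3′ along the gene, up to 250 bases. For the second and the third start of Nfkb2, which lie inside the gene, 30 bases are given. They were placed around a match of the narrower motif described below, and other matches before these starts are not shown. Capitals mark a broad form of the kB motif (GGG, then 5 bases of any kind, then CC) on either strand, with overlapping matches joined and a match at the end of the Rela run cut where the gene begins.
Nfkbia, chr12:55492648-55492897, minus strand: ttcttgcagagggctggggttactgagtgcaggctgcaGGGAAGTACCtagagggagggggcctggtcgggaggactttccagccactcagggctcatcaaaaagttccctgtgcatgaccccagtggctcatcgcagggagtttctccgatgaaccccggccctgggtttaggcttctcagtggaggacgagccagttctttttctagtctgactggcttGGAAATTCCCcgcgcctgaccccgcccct
Nfkb2, first start, chr19:46304487-46304736, plus strand: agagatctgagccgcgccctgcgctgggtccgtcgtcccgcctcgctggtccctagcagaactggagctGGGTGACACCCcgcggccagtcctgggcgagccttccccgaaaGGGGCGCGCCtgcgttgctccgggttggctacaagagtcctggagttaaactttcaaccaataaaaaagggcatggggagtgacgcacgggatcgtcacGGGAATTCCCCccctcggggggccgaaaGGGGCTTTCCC
Nfkb2, window before the second start, chr19:46305449-46305478, plus strand: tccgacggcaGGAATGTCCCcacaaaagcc
Nfkb2, window before the third start, chr19:46305695-46305724, plus strand: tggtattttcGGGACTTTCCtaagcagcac
Rela, chr19:5637291-5637482, plus strand: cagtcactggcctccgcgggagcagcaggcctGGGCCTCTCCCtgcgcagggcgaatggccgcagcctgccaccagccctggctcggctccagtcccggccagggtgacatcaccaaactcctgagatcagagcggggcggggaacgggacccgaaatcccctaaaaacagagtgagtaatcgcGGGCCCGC
Rel, chr11:23770971-23771219, minus strand: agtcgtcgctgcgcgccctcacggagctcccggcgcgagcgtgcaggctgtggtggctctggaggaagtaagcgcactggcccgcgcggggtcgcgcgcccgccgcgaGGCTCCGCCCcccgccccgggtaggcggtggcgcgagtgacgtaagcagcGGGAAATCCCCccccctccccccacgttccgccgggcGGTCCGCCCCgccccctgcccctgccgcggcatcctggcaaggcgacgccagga

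The broad motif was in all 10 entries, but also in 45.8% of 32851 promoters over the same 250 bases. A narrower form (GGGA, 2 bases of any kind, then TTCC), each match of which is also a match of the broad form, was in 1.21% of promoters and in 2 of the 8 genes, Nfkbia and Nfkb2. The 1.21% counts single entries, while Nfkb2 had 3 entries in which a match could fall. In Nfkbia it was on the reverse strand, GGAAATTCCC, starting 29 bases before the start site. In Nfkb2 it was GGGACTTTCC, 225 bases before the third start, and GGAATGTCCC on the reverse strand, 236 bases before the second start. Rel held GGGAAATCCC 92 bases before its start, which matched the broad form only. The same holds for GGGGATTTCC in Traf3 (10 bases before its start) and GGGGGATTCC in Nfkbie (106 bases). It also holds for GGGAATTCCC, 39 bases before the first start of Nfkb2. These are matches of letters and not measured binding.

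Per length, Nfkbia was the most abundant of the 10 genes in 17 of 18 libraries and Traf3 the least abundant in 18 of 18. Mean deposited FPKM (fragments per kilobase of transcript, scaled to library size) on day 0 in the WT label was 45.0 ± 6.95 (SD, n = 3) for Nfkbia, 37.5 ± 4.03 for Rela and 27.1 ± 3.86 for Nfkb2. Bcl3 followed at 11.2 ± 4.30, and Rel (8.44 ± 1.23), Nfkb1 (7.41 ± 0.874), Nfkbie (6.97 ± 1.51), Relb (6.29 ± 1.98) and Map3k14 (5.66 ± 1.07) came next, each within 1 SD of its neighbours in this order. The lowest, Traf3, was at 0.952 ± 0.558 FPKM. The order shifted with RANKL. Nfkb2 FPKM was below that of Rela in all 6 day 0 libraries, above it in 3 of 6 on day 1 and above it in 6 of 6 on day 3. Relb FPKM exceeded that of Rel in 2 of 6 libraries on day 0, 5 of 6 on day 1 and 6 of 6 on day 3.

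**Figure D1:**
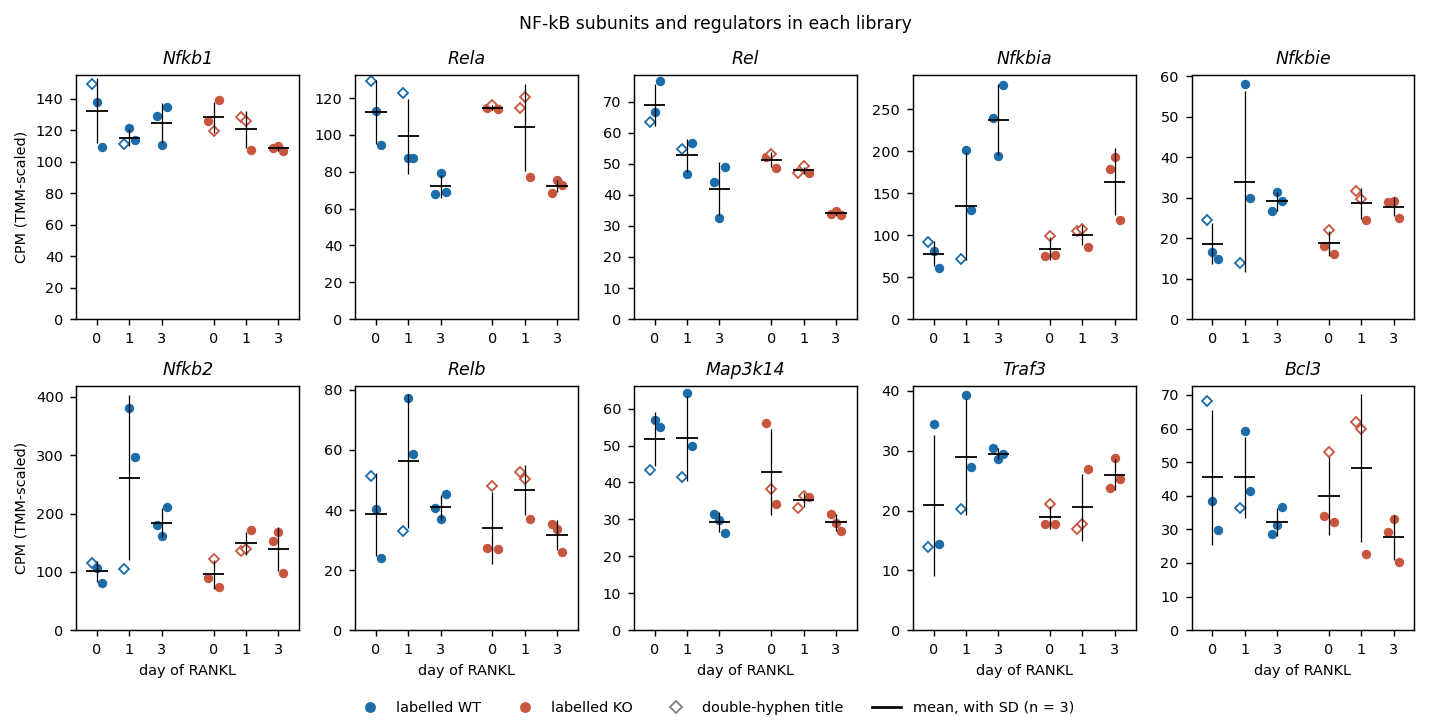
CPM scaled by TMM (y axis, from 0) of the 10 genes in each library by day of RANKL (x axis), libraries labelled WT at left (blue) and KO at right (red). Bars are the mean and SD of 3 libraries, and open diamonds are double-hyphen titles. Nfkbia reached 118 to 280 CPM on day 3 against 61.6 to 99.6 on day 0, and every day 3 library had less Rel and Rela than every day 0 library of its label.

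On day 3 against day 0, Nfkbia rose in both labels, while Rel, Rela and Map3k14 fell in both. Thus 1 gene rose and 3 fell of 10 in each label. Of all tested genes, 23.7% rose and 26.5% fell in the WT label, and 20.2% rose and 22.3% fell in the KO label, so the members' share called was not far from that of the table. DESeq2 called 5 of the 10 in the WT label and 4 in the KO label, against 54.6% and 47% of all genes. The median absolute log2 fold change of the 10 was 0.639 in the WT label, against 0.691 over all genes, and 0.549 against 0.571 in the KO label. The groups did not overlap for 6 of the 10 in the WT label and 7 in the KO label, against 62.5% and 58.8% of all tested genes.

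RELA and REL carry the transactivation domain of canonical dimers. In the WT label, Rel (GRCm38 chr11:23736847-23770970) was at 63.4, 66.8 and 76.5 CPM on day 0, at 54.7, 46.5 and 56.7 on day 1, and at 44.2, 32.5 and 49.0 on day 3. The KO values were 52.1, 53.2 and 48.6 CPM on day 0, 47.2, 49.3 and 47.1 on day 1, and 33.8, 34.7 and 33.5 on day 3. Every day 3 library lay below every day 0 library of its label. By edgeR's quasi-likelihood test with Benjamini-Hochberg adjustment over all genes, Rel changed by a log2 of -0.72 (SE 0.13, adjusted p = 0.000547) in the WT label and -0.59 (SE 0.13, adjusted p = 0.00285) in the KO label.

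Rela (chr19:5637483-5648130) also fell. It was at 129, 113 and 94.4 CPM on day 0 and at 68.0, 79.2 and 69.1 on day 3 in the WT label, a log2 change of -0.64 (SE 0.17, adjusted p = 0.0066 in edgeR). Libraries labelled KO had 114, 116 and 114 CPM and then 68.6, 75.4 and 73.0, a log2 change of -0.67 (SE 0.17, adjusted p = 0.00656 in edgeR). The groups did not overlap in either label. Without the double-hyphen libraries, in which Rela was higher, the log2 changes were -0.47 and -0.60 (adjusted p = 0.00838 and 0.0031 in edgeR).

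Nfkb1 (chr3:135584655-135691547), which encodes the p105 precursor of p50, passed in neither label. It ranged from 110 to 150 CPM on day 0 and from 111 to 135 on day 3 in the WT label, with overlapping groups (log2 change -0.09, 95% interval -0.34 to 0.17, adjusted p = 0.567 in edgeR). Libraries labelled KO had 126, 120 and 139 CPM on day 0 and 109, 110 and 107 on day 3, without overlap, but the log2 change of -0.24 did not pass (interval -0.50 to 0.01, adjusted p = 0.116 in edgeR).

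IkBalpha, encoded by Nfkbia, is the inhibitor that NF-kB itself is known to induce. In the WT label Nfkbia (chr12:55489411-55492647) was at 91.7, 81.6 and 61.6 CPM on day 0, at 72.2, 201 and 131 on day 1 and at 240, 194 and 280 on day 3. Nfkbia in the KO label was at 75.4, 99.6 and 76.7 CPM on day 0, at 106, 108 and 86.5 on day 1 and at 180, 193 and 118 on day 3. Every day 3 library lay above every day 0 library of its label. The rise was 3.04-fold in the WT label (log2 1.60, SE 0.30, adjusted p = 0.00063 in edgeR) and 1.95-fold in the KO label (log2 0.97, SE 0.30, adjusted p = 0.0178). The KO call was lost with each of 4 of the 6 libraries left out in turn (day 0 number 1, day 0 number 3, day 3 number 1 or day 3 number 2), with adjusted p from 0.0524 to 0.0675. The difference between the labels' changes (log2 -0.64, interval -1.53 to 0.25) did not pass (adjusted p = 0.926 in edgeR).

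Nfkbie (chr17:45555716-45563169) encodes IkBepsilon, an inhibitor that acts with delay. It was at 24.6, 16.6 and 14.9 CPM on day 0 and at 26.7, 31.4 and 29.2 on day 3 in the WT label, and at 18.2, 22.1 and 16 and then 28.9, 29.3 and 25.1 in the KO label. Day 3 was above day 0 without overlap in both labels, yet the log2 changes of 0.64 (SE 0.35) and 0.56 (SE 0.35) did not pass (adjusted p = 0.139 and 0.205 in edgeR). Without the double-hyphen libraries they were 0.95 and 0.75 and passed (adjusted p = 0.0103 and 0.0307).

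In the alternative arm, Nfkb2 (chr19:46304737-46312090), the gene of p100, was at 115, 107 and 80.8 CPM on day 0 and at 180, 162 and 212 on day 3 in the WT label. Nfkb2 in the KO label was at 89.9, 123 and 74.1 CPM on day 0 and at 152, 168 and 97.3 on day 3. The WT groups did not overlap and the KO groups did, although the day 3 library was the higher in 3 of 3 same-numbered KO pairs. The log2 changes of 0.87 (SE 0.35, adjusted p = 0.0512 in edgeR) and 0.54 (SE 0.35, adjusted p = 0.222) did not pass. Without the double-hyphen libraries they were 1.03 and 0.82, and both passed (adjusted p = 0.00835 and 0.0266 in edgeR). In that fit 6 of the 10 genes were called in each label, the 4 above with Nfkb2 and Nfkbie, against 46.1% of genes in the WT label and 39.8% in the KO label.

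Relb (chr7:19606217-19629438), the partner of p52, was at 51.4, 40.5 and 24.0 CPM on day 0 and at 40.8, 36.9 and 45.2 on day 3 in the WT label. It was at 27.4, 47.8 and 27.0 and then at 35.5, 33.6 and 26.0 in the KO label. The groups overlapped in both labels, and the log2 changes were 0.09 (interval -0.59 to 0.76) and -0.10 (interval -0.78 to 0.57), with adjusted p = 0.836 and 0.811 in edgeR.

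NIK, encoded by Map3k14, starts p100 processing. Map3k14 (chr11:103219762-103267472) was at 43.4, 57.0 and 55.1 CPM on day 0 and at 31.5, 29.9 and 26.3 on day 3 in the WT label, a log2 change of -0.83 (SE 0.19, adjusted p = 0.00243 in edgeR). Map3k14 in the KO label was at 56.2, 38.1 and 34.2 CPM and then at 31.6, 29.1 and 26.9, a log2 change of -0.55 (SE 0.19, adjusted p = 0.028 in edgeR). No group overlapped. The KO value leaned on the first day 0 library: without it the log2 change was -0.29 and the adjusted p = 0.203. The KO call was also lost without day 3 number 2 (adjusted p = 0.0717) or number 3 (0.0861), and with replicate numbers within label as a block (log2 -0.54, adjusted p = 0.0504 in edgeR).

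Traf3 (chr12:111166370-111267153), the adaptor that brings NIK to its ubiquitin ligases, was at 13.8, 34.5 and 14.4 CPM on day 0 and at 30.5, 28.6 and 29.5 on day 3 in the WT label. Traf3 in the KO label was at 17.8, 21.1 and 17.7 CPM and then at 23.8, 28.8 and 25.3. The WT groups overlapped through the second day 0 library, and the KO groups did not overlap. The log2 changes of 0.50 (SE 0.31) and 0.46 (SE 0.31) did not pass (adjusted p = 0.193 and 0.245 in edgeR); without the second WT day 0 library the WT value was 1.10 and passed (adjusted p = 0.00415).

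BCL3, an IkB-like protein that binds p50 or p52 dimers in the nucleus, was called in neither label. Bcl3 (chr7:19808462-19822770) was at 68.3, 38.4 and 29.9 CPM on day 0 and at 28.6, 31.3 and 36.8 on day 3 in the WT label. Bcl3 in the KO label was at 34.1, 53.1 and 32.2 CPM and then at 29.3, 33.2 and 20.3. The highest day 0 library of each label was the double-hyphen one. The log2 changes of -0.50 and -0.53 (adjusted p = 0.271 and 0.261 in edgeR) were -0.02 and -0.21 without those libraries (adjusted p = 0.949 and 0.501).

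**Figure D2:**
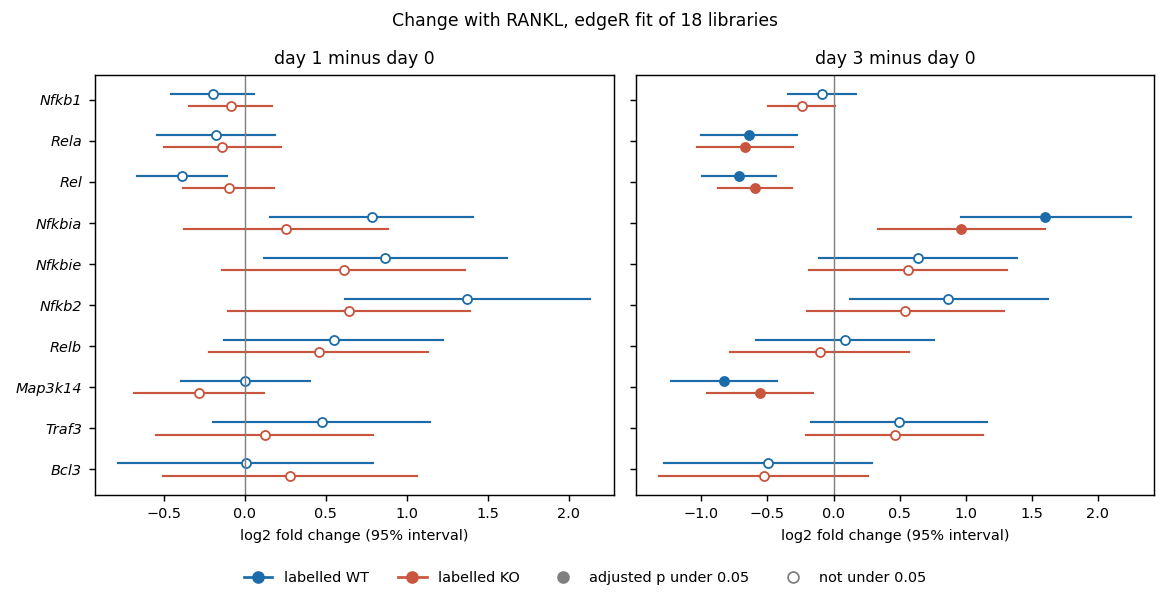
Log2 fold change from day 0 (x axis) with its 95% interval for each gene, WT label in blue and KO label in red, day 1 at left and day 3 at right; filled points have an adjusted p under 0.05. On day 3, Nfkbia lies above 0 and Rela, Rel and Map3k14 below 0 in both labels, and no day 1 point is filled.

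Library scaling moved these values. Dividing by total counts in place of TMM raised the median log2 change of all genes to 0.331 in the WT label and 0.287 in the KO label, from -0.031 and -0.005. With total counts 3 members rose and none fell in the WT label (Nfkbia, Nfkbie and Nfkb2), and 1 rose and 1 fell in the KO label, where 51.8% and 43.8% of all genes were called in either direction. Rel (log2 -0.35, adjusted p = 0.0726 in edgeR), Rela (-0.27, 0.0662) and Map3k14 (-0.47, 0.112) then no longer passed in the WT label, nor did Rel (-0.30, 0.133) and Map3k14 (-0.27, 0.376) in the KO label. Of all genes called with total counts in the WT label 69.9% were higher, against 47.2% with TMM, and in the KO label 68.5% against 47.5%. Relative to the median of all genes, Rel was at -0.686 with TMM and -0.682 with total counts in the WT label, and Rela at -0.607 and -0.598. A change of scaling moves all genes of a library alike, so this likeness follows by arithmetic and is no test of the falls.

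Pairs of the genes were next compared as ratios within a library, in which scaling cancels. Nfkb2 over Nfkb1, Relb over Rela and Relb over Rel set the alternative arm against the canonical one. Nfkbia over Nfkbie lies within the canonical arm, and Map3k14 over Traf3 within the alternative arm. The log2 ratio of 2 genes on day 0 was set against that on day 3 or day 1 by an exact 2-sided permutation test of libraries within label. The test had 400 orders and a smallest possible p of 0.005, and p was adjusted over 10 tests. The pairs and the tests were chosen with earlier results of these data known, which these p-values do not allow for. The ratio of Nfkb2 to Nfkb1 was higher on day 3 by 0.864 on the log2 scale (exact permutation p = 0.01, adjusted 0.02). It was -0.376, -0.368 and -0.438 on day 0 and 0.477, 0.549 and 0.653 on day 3 in the WT label. The KO values were -0.486, 0.0357 and -0.908 on day 0 and 0.485, 0.612 and -0.135 on day 3. The WT groups stood apart and the KO groups overlapped, while each of the 3 same-numbered KO pairs of day 0 and day 3 was higher on day 3. With these KO pairs kept intact in the permutation (160 orders), a test added once the values were known, all 5 day 3 ratios still passed (exact permutation p = 0.0125 to 0.025, adjusted 0.025 to 0.0417).

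The ratio of Relb to Rela was higher on day 3 by 0.690 (exact permutation p = 0.01, adjusted 0.02), and that of Relb to Rel by 0.703 (p = 0.02, adjusted 0.0333). Relb itself passed in neither label, and the other member of each pair fell in both. Relb over Rela lay between -1.97 and -1.33 on day 0 and between -1.10 and -0.611 on day 3 in the WT label, and between -2.07 and -1.28 and then between -1.48 and -0.948 in the KO label, where the groups overlapped and the ratio was higher on day 3 in 3 of 3 same-numbered pairs. Leaving out KO day 3 number 1 or number 2 took the adjusted p of Relb over Rela to 0.0562 or 0.05, and leaving out any one of WT day 3 numbers 1 to 3 or KO day 3 numbers 1 and 2 took that of Relb over Rel to between 0.05 and 0.0562.

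Of the inhibitors, Nfkbia gained over Nfkbie by 0.657 on the log2 scale on day 3 (exact permutation p = 0.01, adjusted 0.02). This ratio lay between 1.89 and 2.28 on day 0 and between 2.62 and 3.25 on day 3 in the WT label, and between 2.04 and 2.25 and then 2.23 and 2.72 in the KO label, where it was higher on day 3 in 2 of 3 same-numbered pairs. Without the double-hyphen libraries it was 0.615 (adjusted p = 0.06). Map3k14 lost against Traf3 by 1.22 (exact permutation p = 0.005, the smallest possible, adjusted 0.02). In the WT label that ratio went from between 0.720 and 1.93 to between -0.168 and 0.0606, and in the KO label from between 0.852 and 1.65 to between 0.0121 and 0.404, without overlap in either. Each label alone has 20 orders, so that its exact permutation p cannot go below 0.1.

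**Figure D3:**
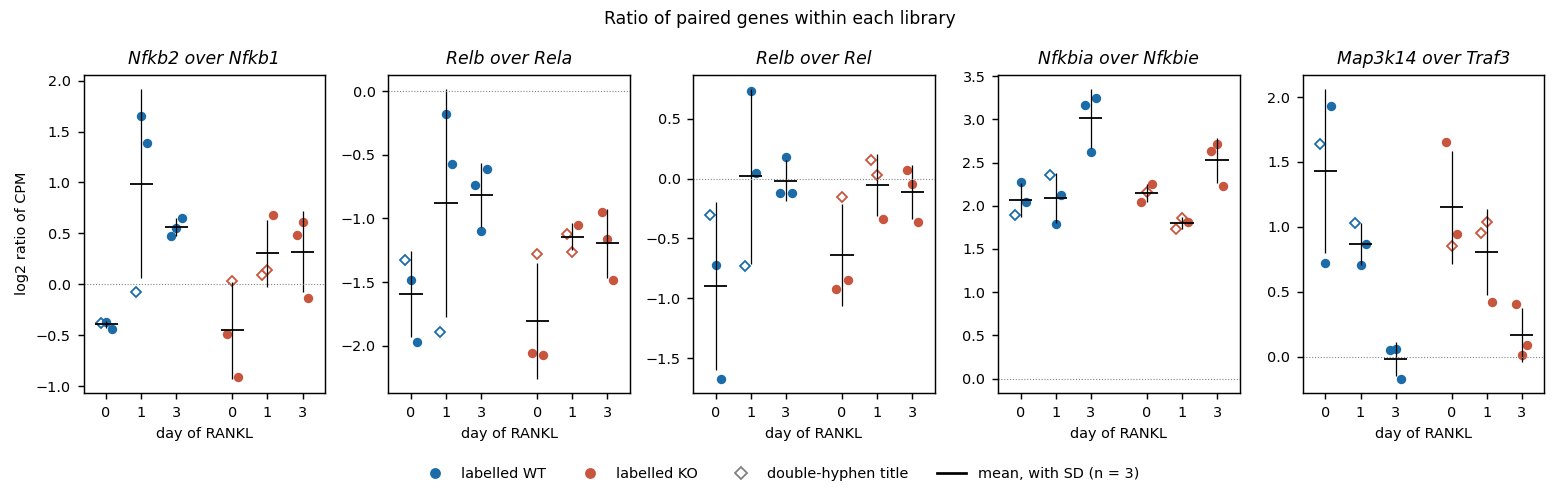
Log2 ratio of the CPM of paired genes (y axis) in each library by day of RANKL (x axis), with the mean and SD of 3 libraries; WT label in blue, KO label in red, open diamonds double-hyphen titles. Map3k14 over Traf3 lay between -0.168 and 0.404 in the 6 day 3 libraries and between 0.720 and 1.93 in the 6 on day 0, and the double-hyphen WT day 1 library lay far below the other 2 in Nfkb2 over Nfkb1.

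On day 1 against day 0, none of the 10 genes was called by edgeR in either label, where 2.35% of genes were called in the WT label and 0.0211% in the KO label. At an unadjusted p under 0.05, 4 passed in the WT label (Nfkb2, Nfkbia, Nfkbie and Rel) and none in the KO label, against 20.5% and 10.2% of all genes. DESeq2 called 2 in the WT label (Nfkb2 and Rel) and none in the KO label, against 9.13% and 1.2% of all genes. Nfkb2 in the WT label was at 106, 381 and 298 CPM on day 1, against 80.8 to 115 on day 0, and the library at 106 is the double-hyphen one. Its log2 change was 1.37 (SE 0.35, adjusted p = 0.0546 in edgeR). In the KO label Nfkb2 was at 137, 139 and 172 CPM on day 1, above all 3 day 0 libraries (log2 0.64, adjusted p = 0.563).

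The double-hyphen WT day 1 library lay with day 0 in 4 genes. It had 72.2 CPM of Nfkbia where the other 2 had 201 and 131, 13.9 CPM of Nfkbie against 58.2 and 29.9, and 33 CPM of Relb against 77.4 and 58.6. Without the 5 double-hyphen libraries 4 of 10 genes rose on day 1 in the WT label, against 7% of all genes. They were Nfkb2 (log2 1.86, adjusted p = 0.0127 in edgeR), Nfkbie (1.49, 0.02), Nfkbia (1.22, 0.0386) and Relb (1.09, 0.0384). In the KO label, where 1 day 1 library then remains and is assumed to vary like the others, none passed, against 0.0133% of all genes. Without that WT day 1 library alone, 3 of 10 were called (Nfkb2, Nfkbia and Nfkbie), against 12.4% of all genes.

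The ratio of Nfkb2 to Nfkb1 was higher on day 1 than on day 0 by 1.07 (exact permutation p = 0.005, adjusted 0.02). The adjusted p was 0.05 when WT day 0 number 1 or number 3 was left out, and without the 5 double-hyphen libraries the difference was 1.65 (adjusted p = 0.0694). The ratios of Relb to Rela (0.685) and to Rel (0.752) did not pass after adjustment (exact permutation p = 0.045 and 0.04, both adjusted 0.0562), nor did Nfkbia over Nfkbie (-0.167, adjusted p = 0.19) or Map3k14 over Traf3 (-0.454, adjusted p = 0.122). Without WT day 0 number 2, Map3k14 over Traf3 was -0.631 (exact permutation test, adjusted p = 0.0429), and both Relb ratios passed without the double-hyphen WT day 1 library or without KO day 0 number 2.

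From day 1 to day 3, 2 of 10 genes were called in each label, against 32% of all genes in the WT label and 28% in the KO label. In the WT label Nfkbia rose (log2 0.82, adjusted p = 0.0456 in edgeR) and Map3k14 fell (-0.83, adjusted p = 0.00453). In the KO label Rel (-0.49, adjusted p = 0.0133) and Rela (-0.53, adjusted p = 0.0318) fell. The WT Nfkbia call was lost with WT day 1 number 2 or day 3 number 1 or 3 left out (adjusted p = 0.0935 to 0.147) and without the double-hyphen WT day 1 library (log2 0.55, adjusted p = 0.143), where Nfkb2 was lower on day 3 than on day 1 (-0.86, adjusted p = 0.0267 in edgeR). The KO call of Rela was lost with any of 5 of the 6 libraries left out (all but day 1 number 3; adjusted p = 0.0666 to 0.168) and that of Rel without day 1 number 2 (adjusted p = 0.0566). For Rela in the KO label, the log2 change was -0.06 without all 5 double-hyphen libraries (adjusted p = 0.838 in edgeR).

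Between the labels, none of the 10 genes passed on any day. Of all genes 0.119% passed on day 0, 0.112% on day 1 and 0.14% on day 3, and for the difference in response 0% on day 3 and 0% on day 1. At an unadjusted p under 0.05 there were 1, 2 and 1 of 10 genes on days 0, 1 and 3, against 7.59%, 7.9% and 10.7% of all genes, and none for either difference in response, against 5.4% on day 3 and 3.7% on day 1. DESeq2 also called none of the 10, against 0.451%, 0.535% and 1.66% of all genes on days 0, 1 and 3 and, for the difference in response, 0.0282% on day 3 and 0% on day 1. Under the KO label Rel had the lower estimate on day 0 (log2 -0.43, unadjusted p = 0.00557, adjusted p = 0.491 in edgeR) and on day 3 (-0.30, unadjusted p = 0.0362, adjusted p = 0.431). On day 1 these were Nfkb2 (-0.81, interval -1.56 to -0.06, adjusted p = 0.608) and Map3k14 (-0.56, interval -0.96 to -0.16, adjusted p = 0.511). With the double-hyphen library of WT day 1 left out, the Nfkb2 difference was -1.19 and passed (adjusted p = 0.0449 in edgeR), 1 of 10 against 0.899% of all genes. It did not pass with title style as a covariate (-0.72, adjusted p = 0.399 in edgeR). Nor did it pass with both WT day 1 libraries numbered 1 averaged (-0.91, adjusted p = 0.295 in edgeR). Without all 5 double-hyphen libraries, which leaves 1 KO day 1 library, the Nfkb2 difference was -0.97.

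On day 3 the KO label had the lower estimate in 9 of 10 genes, none of which passed. The median log2 difference was -0.215 against 0.018 over all genes. Map3k14 (-0.002) and Nfkbie (-0.07) were among the 9 and near 0. The share of all genes with a lower estimate is not given here. Nfkbia was at 118 to 193 CPM in the KO label and 194 to 280 in the WT label (log2 -0.54, interval -1.17 to 0.09, adjusted p = 0.537 in edgeR). Groups did not overlap for 3 of the 10 genes (Nfkb1, Nfkbia and Relb), against 29.2% of all genes.

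Of 34 other genes of the pathway, all tested, 7 rose and 10 fell by day 3 in the WT label, and 5 rose and 10 fell in the KO label. That is 17 and 15 of 34 called, near the 50.2% and 42.5% of all genes called in either direction. On day 1, 2 rose and 1 fell in the WT label and none passed in the KO label, against 2.35% and 0.0211% of all genes. By day 3, 1 of 4 genes of the TAK1 complex fell in the WT label and none passed in the KO label. Among all genes 26.5% fell by day 3 in the WT label and 22.3% in the KO label. Neither of the 2 genes of the IkB ubiquitin ligase passed in either label by day 3. The median log2 change of the 34 by day 3 was -0.147 and -0.143, against -0.031 and -0.005 over all genes. Tnfrsf11a, which encodes RANK, rose from a mean of 47.8 to 152 CPM in the WT label (log2 1.67, SE 0.31, adjusted p = 0.000541 in edgeR) and from 45.0 to 97.3 in the KO label (1.11, adjusted p = 0.0093). Traf1, a known NF-kB target and adaptor of TNF receptors, rose from 5.90 to 81.5 CPM (log2 3.79, adjusted p = 0.000577) and from 9.17 to 52.6 (2.52, adjusted p = 0.00772). Both the receptor and this adaptor were thus higher in both labels.

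All 4 genes of linear ubiquitin chains, which recruit and activate the IKK complex, fell in both labels, where 26.5% (WT) and 22.3% (KO) of all genes fell. Rnf31, the catalytic subunit HOIP of the ligase, fell from 72.3 to 33.2 CPM in the WT label (log2 -1.12, SE 0.13, adjusted p = 2.03e-05 in edgeR) and from 68.0 to 30.4 in the KO label (-1.16, adjusted p = 3.22e-05). Rbck1 and Sharpin, the other subunits of that ligase, fell by 0.77 and 0.73 on the log2 scale in the WT label (adjusted p = 0.000222 and 0.000519) and by 0.70 and 0.88 in the KO label (adjusted p = 0.000658 and 0.000238). Otulin, which takes such chains apart, fell with them (log2 -0.77, adjusted p = 0.00164, and -0.82, adjusted p = 0.00149).

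Of 6 genes of the IKK complex and its relatives, 1 rose and 3 fell in each label, against 23.7% higher and 26.5% lower among all genes in the WT label and 20.2% and 22.3% in the KO label. Ikbke, an IKK-related kinase of interferon signalling, fell from 221 to 36.2 CPM in the WT label (log2 -2.61, adjusted p = 0.000125 in edgeR) and from 223 to 51.3 in the KO label (-2.12, adjusted p = 0.000777). Tank, a scaffold of these kinases, rose from 27.9 to 82.9 CPM (1.57, adjusted p = 5.37e-05) and from 30.6 to 58.7 (0.94, adjusted p = 0.00267). Ikbkb and Tbk1 fell in both labels, and Chuk, the IKKalpha kinase that acts downstream of NIK, was at log2 0.09 (adjusted p = 0.506) and -0.10 (adjusted p = 0.484).

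Of 3 other IkB genes, 1 rose and 1 fell in the WT label and 1 fell in the KO label. The shares of all genes were 23.7% higher and 26.5% lower in the WT label, and 20.2% and 22.3% in the KO label. Nfkbiz, the gene of the nuclear protein IkBzeta, fell in both labels (log2 -1.66, adjusted p = 0.00137, and -1.26, adjusted p = 0.0098 in edgeR). The WT rise was of Nfkbid, the gene of the nuclear protein IkBNS, described after its values were seen. It went from 15.2, 16.1 and 11 CPM to 24.4, 27.1 and 28.7 without overlap (log2 0.92, SE 0.19, adjusted p = 0.00124 in edgeR). In the KO label Nfkbid was at 18.1, 22.6 and 17 CPM and then at 19.0, 19.3 and 12.3, with overlap (log2 -0.19, adjusted p = 0.435; 0.12 with total counts). The difference between the labels' changes of Nfkbid, a log2 of -1.11, did not pass (unadjusted p = 0.000877, adjusted p = 0.91 in edgeR).

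Tnfaip3, which encodes the deubiquitinase A20 that limits NF-kB, rose from 37.0 to 78.1 CPM in the WT label (log2 1.08, adjusted p = 0.034 in edgeR). That call was lost with any of 5 of the 6 libraries left out (adjusted p = 0.0525 to 0.103). In the KO label the log2 change of Tnfaip3 was 0.72, with overlapping groups, and did not pass (adjusted p = 0.151 in edgeR). Of the other brakes, of which A20 is 1 of 6, 1 fell in the WT label (Tnip2), and 1 rose (Pdlim2) and 2 fell (Tnip2 and Cyld) in the KO label. Among all genes 23.7% rose and 26.5% fell in the WT label, and 20.2% and 22.3% in the KO label. Otud7b, a deubiquitinase that protects TRAF3, rose in the KO label from 33.3 to 62.7 CPM (0.91, adjusted p = 0.000253) and in the WT label (0.79, adjusted p = 0.000413).

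**Figure D4:**
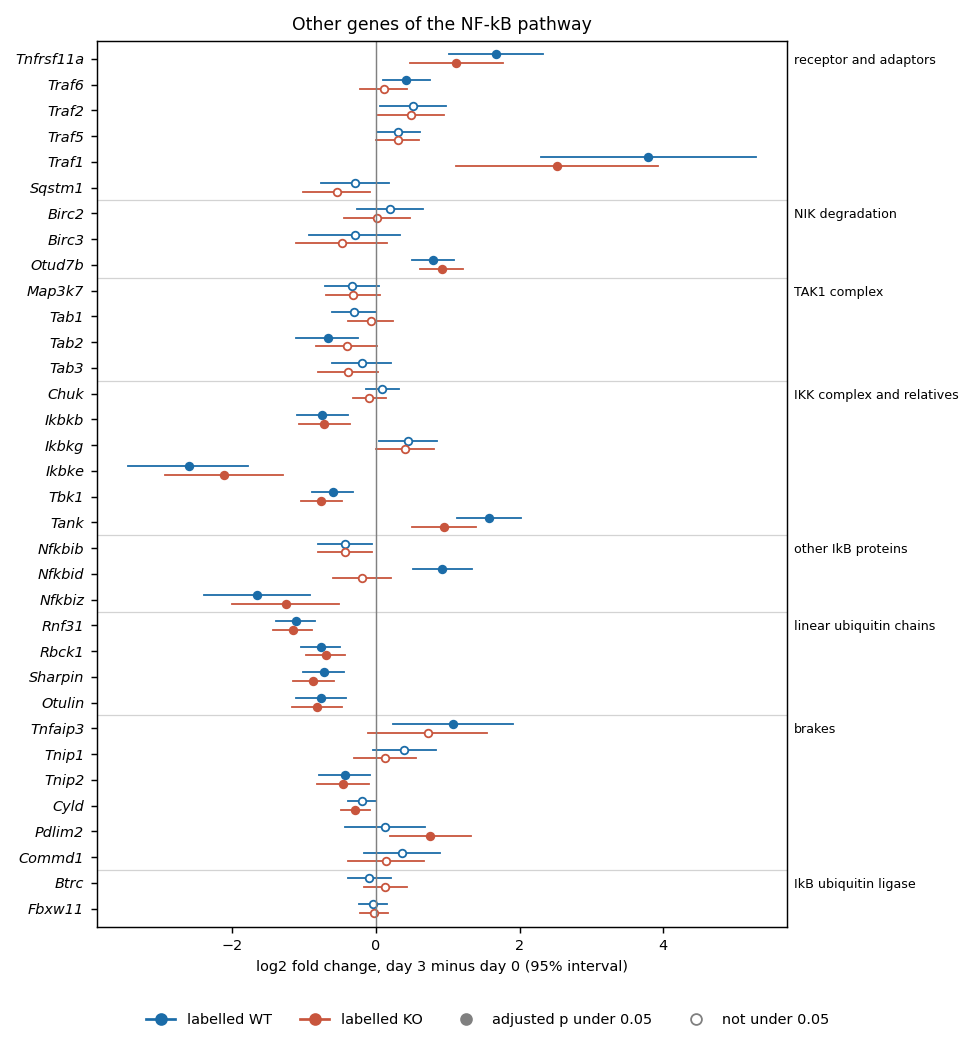
Log2 fold change from day 0 to day 3 (x axis) with its 95% interval for 34 other pathway genes grouped by role, WT label in blue and KO label in red; filled points have an adjusted p under 0.05. The 4 linear ubiquitin genes lie below 0 in both labels, and Tnfrsf11a, Traf1, Otud7b and Tank above 0.

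Of 14 genes that NF-kB is known to induce in macrophages or osteoclasts, 13 were tested. By day 3, 2 rose and 6 fell in the WT label and 1 rose and 5 fell in the KO label, against 23.7% higher and 26.5% lower among all genes in the WT label and 20.2% and 22.3% in the KO label. Their median log2 change was -1.68 and -1.33, against -0.031 and -0.005 over all genes. Nfatc1, the main transcription factor of osteoclasts, rose from 107, 111 and 114 CPM to 639, 509 and 766 in the WT label (log2 2.53, adjusted p = 2.16e-06 in edgeR) and from 97.6, 84.1 and 100 to 447, 521 and 301 in the KO label (2.17, adjusted p = 1.12e-05). Sod2, which encodes a mitochondrial superoxide dismutase, rose in the WT label (0.82, adjusted p = 0.0451), a call lost with any of 5 of its 6 libraries left out (adjusted p = 0.0647 to 0.123).

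Irf1, Cd40, Vcam1, Il1b and Cxcl2 fell in both labels, and Cd83 in the WT label. Irf1, a transcription factor of interferon responses, fell by a log2 of 1.93 in the WT label (adjusted p = 6.55e-05 in edgeR) and by 1.33 in the KO label (adjusted p = 0.00129). Vcam1, an adhesion molecule, changed by -2.51 (adjusted p = 0.000688) and -2.20 (adjusted p = 0.00221). Il1b, an inflammatory cytokine, changed by -3.41 (adjusted p = 0.00245) and -2.48 (adjusted p = 0.0135), and its KO call was lost without day 0 number 3 or day 3 number 2 (adjusted p = 0.0602 and 0.0593). Il1b counts were low, 27, 77 and 40 on day 0 and 3, 12 and 3 on day 3 in the WT label. In the KO label they were 73, 16 and 96 and then 14, 5 and 22. Cxcl2, a chemokine, fell by 2.48 on the log2 scale in the WT label (adjusted p = 0.0199), a call lost without day 0 number 1 or 2 or day 3 number 3 (adjusted p = 0.0511 to 0.0731). Cxcl2 counts were also low, 34, 31 and 15 on day 0 and 9, 7 and 4 on day 3 in the WT label. Libraries labelled KO had 16, 15 and 59 and then 5, 9 and 10. The KO call of Cxcl2 (-2.20, adjusted p = 0.0365) was lost with replicate numbers as a block (adjusted p = 0.0578), without KO day 0 number 3 (-1.24, adjusted p = 0.237) and without any 1 of the KO day 3 libraries (adjusted p = 0.0702 to 0.112). These falls came with the fall of the neutrophil and macrophage markers given above, whose part was not tested.

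Over the 18 libraries, the gene whose log2 CPM followed Rela most closely was Klf6 (Pearson r = 0.967), then Rab35 and Wbp1l (both 0.965). Zmiz2 (r = 0.944), Mvp (0.927) and M6pr (0.923) followed Nfkb2, and Tnip3 (0.865), Dctn3 (0.839) and Bcat2 (0.837) followed Relb. Nr1d2 and Lgals8 (both 0.898) and Klhl24 (0.896) followed Rel. The closest to Nfkb1 were weaker, Poli (0.791), Naif1 (0.768) and Zfyve19 (0.756). Between the members themselves, r was 0.837 for Nfkb2 with Nfkbie, 0.771 for Nfkb2 with Relb, 0.614 for Rela with Rel and -0.142 for Nfkb2 with Nfkb1. These are descriptions, since the libraries share days, title styles and scaling.

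Some counts may include reads of neighbours, as the table does not say whether strand was used. Nfkb1 and Map3k14 overlap other genes on their own strand (Gm43430 and 1700028N14Rik), and Bcl3, Nfkb2 and Traf3 overlap genes on the opposite strand (Gm16174 and Gm16175, Psd, and 4930595D18Rik).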

How the data were processed

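RNA was sequenced from bone marrow-derived macrophages in 18 libraries of 6 label and day groups. The deposited table holds whole-number counts per gene and library, for which the counting program is not given in the sources used here. It also holds FPKM, which the authors computed with StringTie and Ballgown (fragments per kilobase of exon, scaled to library size). The submitters' processing notes name GRCm38.p4 and mm10. No value column lacked a library. No pair of libraries within a group agreed within sampling noise (chi-square per degree of freedom 18.9 or more).

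Counts were filtered with filterByExpr, scaled by TMM and tested in edgeR 4.0.16 (R 4.3.3) by the quasi-likelihood test over all 18 libraries as 6 groups, with Benjamini-Hochberg adjustment over 14241 genes and a threshold of 0.05. The deposited counts were not altered before this. The study used edgeR too. DESeq2 1.42.0 was an alternative. The edgeR script was tested on simulated data. Ratios of 2 genes used log2 CPM with a prior count of 2 and an exact permutation test. Motifs were searched as plain letters on both strands.

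The genes, their partners in ratios, the pathway and target lists and the tests were chosen with earlier results of these data known. All 10 members were named, up to 4 pathway genes each way with the largest change among those called with a mean over 1 CPM, and the 3 most like genes by Pearson r among those with a mean CPM of at least 5; other pathway genes named were chosen after their values were seen.

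Replicate numbers were checked as pairs by correlating deviations from group means. All 3 correlations were above 0.1 for KO day 0 with day 3 (0.13, 0.135 and 0.398) and KO day 1 with day 3 (0.218, 0.156 and 0.34). There the numbers were taken to pair libraries. For KO day 0 with day 1 the correlations were 0.0536, 0.501 and 0.598, so number 1 did not exceed 0.1. For WT day 0 with day 3, or between labels, they did not all exceed it either. The pairing thus comes from the data, does not hold between all KO days, and was not set against libraries of unlike number. The 13789775 to 17559958 counts per library gave each member at least 167 counts in every library.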

Additional observations from a re-analysis of the deposited data

How the results depend on the processing

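For 10 members called on day 3 against day 0, the count was 4 in each label. It was 5 in the WT label and 4 in the KO label with DESeq2, 3 and 2 with total counts, 6 and 5 with only the groups compared, and 6 and 6 without the double-hyphen libraries or with both WT day 1 libraries numbered 1 averaged; leaving out single libraries gave 4 to 5 in the WT label and 2 to 4 in the KO label. For WT day 1 against day 0 (0 calls), the count was 2 with DESeq2, 1 with title style as a covariate, 4 without the double-hyphen libraries, 2 with both WT day 1 libraries numbered 1 averaged, and 0 to 3 with single libraries left out. For WT day 3 against day 1 (2 calls) it was 1 without a filter and 1 with only the groups compared, and 1 to 4 with single libraries left out. For KO day 3 against day 1 (2 calls) it was 1 without a filter, 1 with total counts, 1 with title style, 0 without the double-hyphen libraries and 0 to 3 with single libraries left out. KO against WT on day 1 ranged from 0 to 1. The 13 targets in the KO label had 6 calls, 10 with only the groups compared. On day 3 against day 0, 50.2% (WT) and 42.5% (KO) of all genes were called in the main fit. These shares were 54.6% and 47% with DESeq2, and 51.8% and 43.8% with total counts. The share over all genes was not counted with only the groups compared or with the averaged libraries. The shifts therefore cannot be read as particular to these genes. The cause of these shifts was not tested.

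With replicate numbers as a block over all groups the counts of members called did not change (4 and 4 on day 3 against day 0, 0 and 0 on day 1); with the block within label they were 4 and 3. The numbers pair no WT libraries by the check used; there the block within label took WT Nfkbia on day 3 against day 1 to an adjusted p of 0.0892 in edgeR.

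Near-zero log2 changes on day 3 turned sign. Nfkb1 was 0.288 (WT) and 0.0454 (KO) with total counts, 0.0709 (WT) without the double-hyphen libraries and -0.18 to 0.041 (WT) with single libraries left out. Relb in the KO label was 0.214 with total counts, 0.0251 with title style, 0.276 without the double-hyphen libraries and -0.216 to 0.245 with single libraries left out, and in the WT label -0.141 to 0.376. Nfkbid in the KO label was 0.118 with total counts. Chuk in the KO label was 0.197 with total counts, 0.0351 without the double-hyphen libraries and -0.174 to 0.00551 with single libraries left out.

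Ratios passed at the adjusted threshold with FPKM and with a prior count of 0.5 wherever they passed in the report. Without the double-hyphen libraries Nfkb2 over Nfkb1 on day 1 was 1.65 (adjusted p = 0.0694, exact permutation test) and Nfkbia over Nfkbie on day 3 0.615 (adjusted p = 0.06). With same-numbered KO libraries kept as a replicate block, chosen after the data were seen, all 5 day 3 ratios passed (adjusted p = 0.025 to 0.0417). Within the WT label alone the day 3 ratios were 0.954 (Nfkb2 over Nfkb1), 0.777 (Relb over Rela), 0.879 (Relb over Rel), 0.940 (Nfkbia over Nfkbie) and -1.45 (Map3k14 over Traf3), and on day 1 Nfkb2 over Nfkb1 was 1.38 and Nfkbia over Nfkbie turned to 0.0179. Within the KO label alone they were 0.773, 0.603, 0.527, 0.374 and -0.982, and 0.756 on day 1; a label alone is too small to pass. With single libraries left out, Relb over Rela spanned 0.595 to 0.821 on day 3 and 0.509 to 0.938 on day 1, Relb over Rel 0.510 to 0.852 and 0.559 to 0.939, Nfkb2 over Nfkb1 on day 1 0.904 to 1.33, and Map3k14 over Traf3 on day 1 -0.631 to -0.328. Refits of single gene changes were tallied only for selected genes and comparisons, not for every member in every comparison. With a library left out, 433 refits kept call and direction, 6 gained a call, 36 lost one and 5 turned sign. With another setting these counts were 804, 28, 20 and 9. A change that was not called and stayed uncalled in the same direction also counts as kept. The counts are therefore not a rate of stable calls. With 3 libraries in a group, no test for an outlying library was made.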
